A study of Homo sapiens with 12 samples.

Results

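The mRNAs of 10 nuclear genes for mitochondrial chaperones and proteases were followed in PC3 and DU145 cells treated with pentamidine. The genes were HSPD1, HSPE1, HSPA9, DNAJA3, TRAP1, LONP1, CLPP, CLPX, YME1L1 and AFG3L2, chosen by name as genes of the mitochondrial unfolded protein response, and all 10 were found among the 32077 genes of the deposited count table. PC3 and DU145 are established human lines of prostate cancer, independent of androgen and labelled as wild type, and both served with and without drug. Pentamidine is an antiprotozoal diamidine, and the study compared the transcripts of cells given drug or vehicle to learn how it acts on prostate cancer cells. The 4 groups were PC3 cells with vehicle, PC3 cells with 2.5 μmol/L pentamidine, DU145 cells with vehicle and DU145 cells with 2.5 μmol/L pentamidine, each kept for 48 hours and each with 3 samples, 12 in all. The labels do not say whether the 3 samples of a group came from separate cultures, so p-values measure only the spread between these samples, which may be technical. In bulk RNA, fewer cells of a kind and less RNA per cell cannot be told apart.

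Most mitochondrial proteins are made in the cytosol, cross the membranes unfolded and must fold inside the organelle. HSPA9 (mortalin, the mitochondrial HSP70) pulls them in and, with the J-protein DNAJA3, keeps them from clumping, while the HSPD1 barrel with its HSPE1 lid (HSP60 and HSP10) gives them a closed space to fold in. TRAP1 is the HSP90 of the matrix. Proteins that fail to fold are cut by the matrix proteases LONP1 and CLPP, the latter fed by the unfoldase CLPX, and by the inner membrane proteases YME1L1, which faces the intermembrane space, and AFG3L2, which faces the matrix. The mitochondrial unfolded protein response is the rise in such genes that follows when folding in the organelle fails, and in mammalian cells the transcription factors ATF4, DDIT3 (CHOP), CEBPB and ATF5 are tied to it.

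Total counts per sample ranged from 13514195 to 15131436. The 13 mRNAs encoded by mitochondrial DNA took 3.35% to 3.5% of the reads of PC3 samples with vehicle against 0.244% to 0.257% with pentamidine, and 3.82% to 4.04% against 0.205% to 0.213% in DU145 cells. All 13 of 13 fell in both lines, with median log2 fold changes of -4.12 and -4.84. The epithelial keratin mRNAs KRT8 and KRT18 were counted in every sample (at least 238 and 2125 reads), KRT8 at 20.2 ± 1.51 normalized CPM (counts scaled to the library size by TMM; SD, n = 3) in PC3 cells with vehicle and 2707 ± 89.3 in DU145 cells, whereas the epithelial markers EPCAM and CDH1 had at most 2 and 10 reads in any sample. The blood marker PTPRC, the endothelial marker PECAM1 and the prostate marker KLK3 had at most 1, 10 and 2 reads, and the fibroblast gene COL1A1 at most 40.

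The RefSeq starts of HSPD1 and HSPE1 lie back to back on chromosome 2, while the deposited span of HSPE1 lies within that of HSPD1. HSPD1 is at chr2:197486581-197516737 on the minus strand and HSPE1 at chr2:197499994-197503457 on the plus strand (GRCh38). Their RefSeq starts are 105 bp apart for the nearer of the HSPD1 starts and 539 bp apart for the other. For the chaperonin pair, the windows before the HSPE1 start and before the second HSPD1 start, 539 bp away, are shown. The window of the nearer HSPD1 start, which overlaps that of HSPE1, is not shown. Those of HSPA9 and LONP1 are shown because these mRNAs rose in both lines. Each window holds the 250 bases before a RefSeq start (GRCh38.p14), written on the strand of its gene, and capitals mark the motifs found. The windows are chr2:197500129-197500378 (plus strand) for HSPE1, chr2:197499841-197500090 (minus strand) for the second HSPD1 start, chr5:138575402-138575651 (minus strand) for HSPA9 and chr19:5720147-5720396 (minus strand) for the first LONP1 start.
HSPE1: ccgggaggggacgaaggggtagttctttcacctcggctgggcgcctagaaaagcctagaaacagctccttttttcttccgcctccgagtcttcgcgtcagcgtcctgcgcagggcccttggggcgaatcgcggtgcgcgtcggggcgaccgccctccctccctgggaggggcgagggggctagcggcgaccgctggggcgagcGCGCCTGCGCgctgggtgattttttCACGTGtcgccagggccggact
HSPD1, second start: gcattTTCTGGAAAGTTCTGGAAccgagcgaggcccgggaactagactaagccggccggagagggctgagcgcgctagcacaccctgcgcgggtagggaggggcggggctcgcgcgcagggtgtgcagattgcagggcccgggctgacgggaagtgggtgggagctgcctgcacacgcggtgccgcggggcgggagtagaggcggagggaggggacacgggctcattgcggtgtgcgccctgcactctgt
HSPA9: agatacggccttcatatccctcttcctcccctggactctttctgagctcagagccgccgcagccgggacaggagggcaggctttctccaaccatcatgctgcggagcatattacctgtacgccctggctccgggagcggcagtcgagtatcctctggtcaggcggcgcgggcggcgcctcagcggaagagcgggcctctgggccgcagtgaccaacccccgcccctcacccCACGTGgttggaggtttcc
LONP1, first start: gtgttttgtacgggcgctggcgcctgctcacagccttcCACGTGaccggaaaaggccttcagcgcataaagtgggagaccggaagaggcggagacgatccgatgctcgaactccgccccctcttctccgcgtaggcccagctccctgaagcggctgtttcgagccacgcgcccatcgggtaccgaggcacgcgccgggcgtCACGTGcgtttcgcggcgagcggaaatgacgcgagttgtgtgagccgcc
RefSeq windows were found for 8 of the 10 genes, not for CLPP and YME1L1, and 6 motifs were searched on both strands. The half-sites of the heat shock element in the opposed order TTCNNGAA were found in the second HSPD1 window at -245 and -235, counted from the start, with GAANNTTC at -240 overlapping both. These letters occur in 6.62% and 5.78% of 35116 human promoter windows, and in no other window of the 8 genes. The E-box CACGTG (6.34% of windows) was found in HSPE1 at -22, in HSPA9 at -19, in the first LONP1 window at -212 and -49, and in the first HSPD1 window at -88. The last is the site of HSPE1 read from the other strand, and the same holds of the NRF1 palindrome (5.07% of windows) at -47 in HSPE1 and -67 in HSPD1. This palindrome also occurred in the windows of DNAJA3, CLPX and the second LONP1 start, and the cAMP element TGACGTCA (1.65%) in that of TRAP1 at -94. The C/EBP-ATF composite letters TGATGNAA (3.14%) were found in none of the 8 genes. A match is a description of the letters only.

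The 10 genes did not move as 1 group. In PC3 cells LONP1, HSPA9, DNAJA3 and YME1L1 rose, HSPD1, HSPE1 and TRAP1 fell, and AFG3L2, CLPX and CLPP did not pass the test. In DU145 cells HSPA9 and LONP1 rose, HSPD1 and CLPP fell, and 6 genes did not pass. The threshold for a call was 0.05 on the p adjusted over all genes tested by the Benjamini-Hochberg method, from the quasi-likelihood test of edgeR. Thus 7 of the 10 genes were called in PC3 cells, where 43.4% of all 13861 genes tested were called, and 4 of 10 in DU145 cells, where 34.0% of 14313 were called. Higher calls numbered 4 of 10 in PC3 cells beside 21.7% of all genes, and lower calls 3 of 10 beside 21.7%. In DU145 cells there were 2 of each, beside 17.2% of all genes higher and 16.8% lower. The median log2 fold change of the 10 was 0.055 for PC3 and 0.0056 for DU145 cells, against 0.0046 and 0.0085 over all genes tested.

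The changes were all below 2-fold. None of the 10 passed the study's rule, which adds a log2 fold change above 1 in size, in either line (0 of 10 by edgeR and 0 of 10 by DESeq2), a rule passed by 4.75% of all genes for PC3 and 2.03% for DU145 cells. At an unadjusted p below 0.05 edgeR counted 7 of 10 in each line, beside 50.3% of all genes for PC3 and 42.7% for DU145 cells, and DESeq2 counted 7 of 10 beside 44.5% and 5 of 10 beside 35.0%. All treated samples lay on one side of all vehicle samples for 6 of the 10 genes in PC3 cells (52.1% of all genes) and for 7 of the 10 in DU145 cells (44.0% of all genes). Summed over the 10 genes, normalized CPM in PC3 cells went from 3102 ± 67.5 to 3489 ± 91.1, and DU145 cells had 3120 ± 38.9 with vehicle and 3115 ± 31.2 with pentamidine (SD, n = 3). The sum is not divided by length, and HSPA9 and HSPD1 make up most of it. In PC3 cells HSPA9 alone went from 989 ± 28.9 to 1477 ± 40.5, a larger step than that of the sum. HSPD1 went from 1259 ± 20.7 to 1044 ± 38.7 there, so the sum does not show a rise of the 10 genes as a group.

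**Figure D1:**
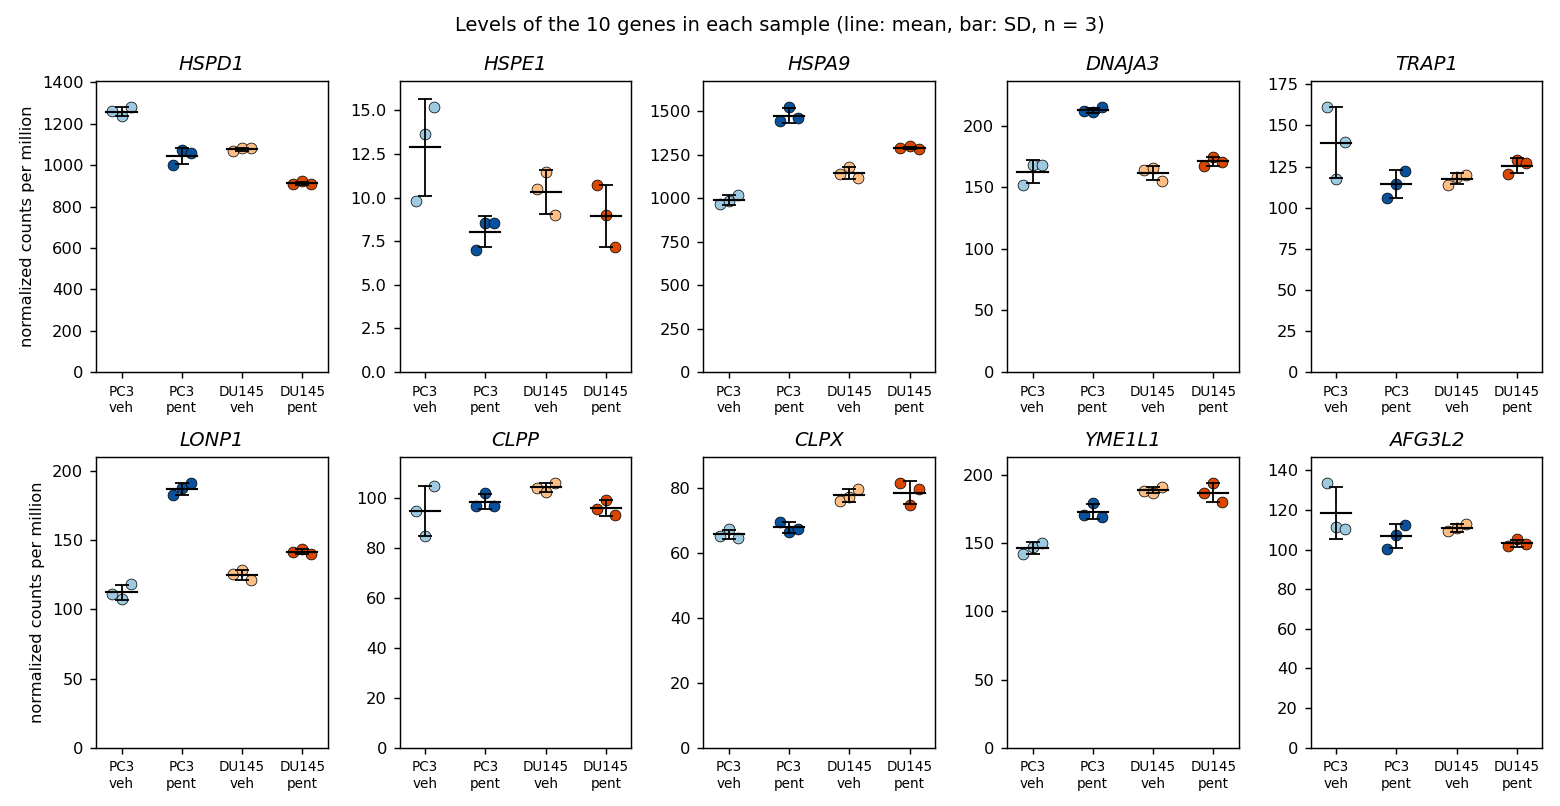
Normalized CPM (vertical axes, each from 0) of the 10 genes in each of the 12 samples, grouped by cell line and treatment (veh, vehicle; pent, pentamidine), with the mean (line) and SD (bar) of 3 samples. HSPA9 and LONP1 stand higher in the treated samples of both lines and HSPD1 lower, while CLPX stays close to its vehicle level, between 64.7 and 69.7 in PC3 cells and between 74.8 and 81.6 in DU145 cells.

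Among the chaperones, HSPA9 rose in both lines. HSPA9 (chr5:138554882-138575444, minus strand) had 964, 982 and 1021 normalized CPM in PC3 cells with vehicle and 1447, 1523 and 1460 with pentamidine. All treated samples lay far above all vehicle samples, and the log2 fold change was 0.58 ± 0.047 (SE; edgeR, adjusted p = 2.5e-08). In DU145 cells the level went from 1139, 1181 and 1118 to 1287, 1299 and 1283, again without overlap, with a log2 fold change of 0.18 ± 0.029 (adjusted p = 2.1e-06). The rise in PC3 cells exceeded that in DU145 cells by 0.41 ± 0.051 on the log2 scale (interaction term of edgeR, adjusted p = 8.0e-07). With vehicle the order was the other way round, with HSPA9 lower in PC3 than in DU145 cells by a log2 difference of -0.24 ± 0.043 (adjusted p = 1.5e-04).

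DNAJA3, the J-protein that stimulates the ATPase of HSPA9, rose in PC3 cells. DNAJA3 (chr16:4425805-4456775, plus strand) had 152, 168 and 169 normalized CPM with vehicle and 212, 211 and 215 with pentamidine in PC3 cells. The treated samples were tightly grouped and above every vehicle sample, with a log2 fold change of 0.39 ± 0.054 (edgeR, adjusted p = 1.8e-05). DU145 cells had 164, 166 and 155 with vehicle and 168, 175 and 171 with pentamidine, a log2 fold change of 0.086 ± 0.038 that did not pass (adjusted p = 0.0724). The samples did not overlap there, and scaling by library size alone gave 0.14 with an adjusted p of 0.0038. That scaling was not particular to DNAJA3. It also moved the DU145 estimates of TRAP1 (0.10 to 0.15), CLPP (-0.11 to -0.063) and YME1L1 (-0.0085 to 0.041) upward. The effect was larger in PC3 cells by 0.30 ± 0.064 (interaction, adjusted p = 8.8e-04).

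TRAP1 was the only chaperone of the 10 whose estimates had opposite signs in the 2 lines. TRAP1 (chr16:3651639-3717597, minus strand) had 161, 118 and 140 normalized CPM in PC3 cells with vehicle and 106, 115 and 123 with pentamidine. The groups overlapped, since the second vehicle sample lay within the treated range, and the log2 fold change was -0.28 ± 0.084 (edgeR, adjusted p = 0.0119). Without the first pentamidine sample the fold change was -0.23 and the adjusted p rose to 0.0804. In DU145 cells the values were 114, 119 and 120 with vehicle against 120, 129 and 127 with pentamidine, a log2 fold change of 0.10 ± 0.041 (adjusted p = 0.0552). The highest vehicle sample and the lowest treated sample were close but did not overlap, and the adjusted p was 0.0252 without the first pentamidine sample of DU145 cells and 0.0036 with scaling by library size alone. That scaling raised the DU145 estimates of DNAJA3, CLPP and YME1L1 as well. The difference between the lines, -0.38 ± 0.10, passed the interaction test (adjusted p = 0.0076) and lay between -0.49 and -0.26 with each sample left out in turn. Of the exon bases of TRAP1, 29.3% lie opposite to exons of DNASE1, and 1.24% are shared with AC006111.2 on the same strand, which had at most 16 reads in any sample. Whether counting used the strand is not given in the sources used here, so reads there cannot be told apart, and DNASE1 had 308 to 351 reads with vehicle and 282 to 356 with pentamidine in PC3 cells. Its part in the result was not tested.

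The chaperonin HSPD1 fell by almost the same amount in both lines. HSPD1 had 1261, 1238 and 1279 normalized CPM in PC3 cells with vehicle and 999.7, 1071 and 1061 with pentamidine. DU145 cells had 1069, 1082 and 1082 with vehicle and 909, 921 and 907 with pentamidine. In each line every treated sample was below every vehicle sample. The log2 fold changes were -0.27 ± 0.046 for PC3 (edgeR, adjusted p = 1.7e-04) and -0.24 ± 0.028 for DU145 cells (adjusted p = 1.7e-09). The difference between them was -0.031 ± 0.050 and did not pass the interaction test (adjusted p = 0.730).

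The HSPE1 mRNA, for the lid of the chaperonin, was counted at a much lower level than that of HSPD1. HSPE1 had 145, 211 and 206 reads in PC3 cells with vehicle and 104, 120 and 127 with pentamidine. This gave 9.82, 13.7 and 15.2 normalized CPM with vehicle and 7.01, 8.53 and 8.57 with pentamidine, with no overlap and a log2 fold change of -0.67 ± 0.16 (edgeR, adjusted p = 0.0021). In DU145 cells it had 10.5, 11.5 and 9.01 against 10.7, 9.02 and 7.15, which overlapped, with a log2 fold change of -0.20 ± 0.13 (adjusted p = 0.252). The difference of the effects, -0.47 ± 0.22, did not pass (adjusted p = 0.142), but passed without the first vehicle sample of PC3 cells (-0.63, adjusted p = 0.0130).

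The count of HSPE1 is uncertain. Of all 50-base stretches of its 570-base transcript HSPE1-202, 39.2% also occur in transcripts of other genes, and 24.2% of all 100-base stretches do. The annotation (GENCODE 29) holds 26 HSPE1 pseudogenes, and the 12 of them with counts summed to between 9.76% and 23.1% of the HSPE1 count over the samples. Over the 1977 exon bases of all HSPE1 transcripts together, exons of HSPE1-MOB4 on the same strand cover 9.71%. HSPD1 exons on the opposite strand cover 14.2%. HSPE1-202 itself has exons at 0 to 60, 695 to 859 and 2660 to 3003 bp from its start. HSPE1-MOB4 has exons at 34 to 60 and 695 to 859 bp, within those of HSPE1-202, whereas no HSPD1 exon overlaps HSPE1-202. No entry named HSPE1-MOB4 was found in the count table, so its own reads could not be followed. For HSPD1, 26.5% of 50-base and 4.18% of 100-base stretches of its transcript occur in other genes, and the 12 counted of its 17 pseudogenes held 1.04% to 1.53% of its count. With the counts of these pseudogenes added to each gene, HSPE1 changed by -0.66 (adjusted p = 0.0019) in PC3 and -0.17 (adjusted p = 0.327) in DU145 cells on the log2 scale, and HSPD1 by -0.27 and -0.24, so that no call among the 10 genes differed. Reads left uncounted, and the part of the overlapping exons, were not tested. There were 101 ± 23.9 HSPD1 reads per HSPE1 read in PC3 cells with vehicle and 131 ± 10.3 with pentamidine (SD, n = 3; exact permutation test, two-sided, p = 0.3), and 105 ± 13.3 against 105 ± 21.1 in DU145 cells (exact permutation test, p = 1.0). With 3 against 3 samples the smallest p that test allows is 0.1.

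**Figure D2:**
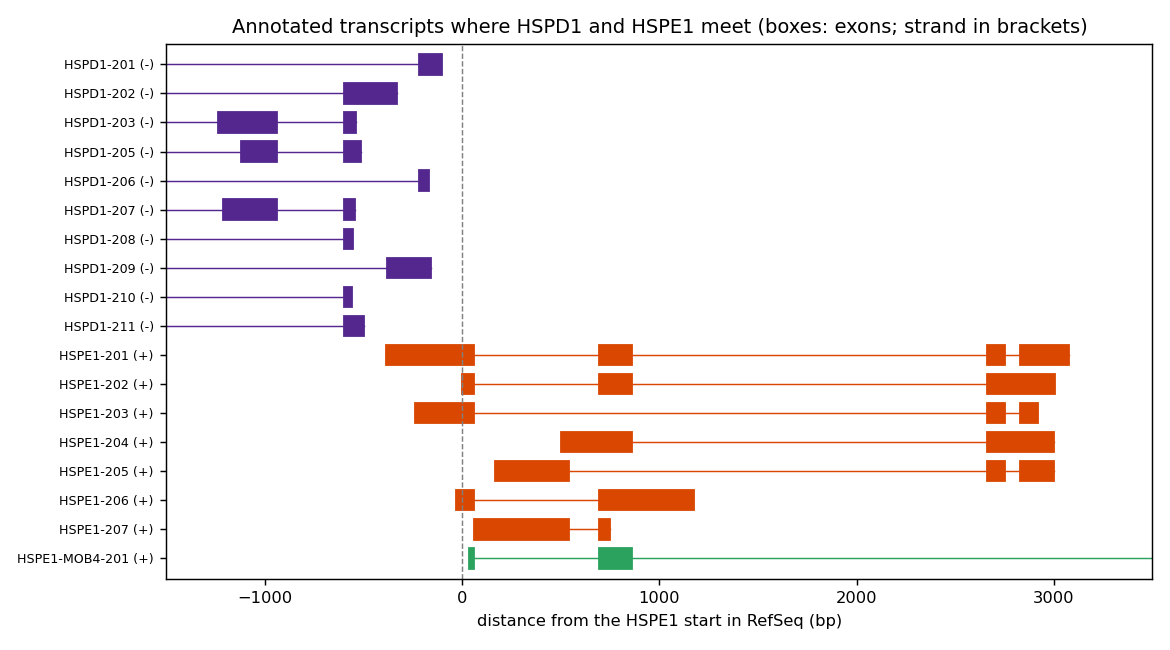
Exons (boxes) of the annotated transcripts where HSPD1 (minus strand), HSPE1 and HSPE1-MOB4 (plus strand) meet, by distance in bp from the RefSeq start of HSPE1 (dashed line). The first exons of 2 HSPE1 transcripts reach into the stretch that holds first exons of HSPD1, and HSPE1-MOB4 shares 2 exons with HSPE1.

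HSPA9 and HSPD1, the most abundant of the 10 mRNAs per base of exon, thus moved in opposite directions. The number of HSPA9 reads per HSPD1 read, a ratio looked at after the values were seen and therefore given with no test, was 0.765, 0.793 and 0.798 in PC3 cells with vehicle and 1.45, 1.42 and 1.38 with pentamidine. In DU145 cells it was 1.07, 1.09 and 1.03 with vehicle and 1.41, 1.41 and 1.41 with pentamidine. The vehicle-treated lines differed in this ratio, whereas the treated samples lay between 1.38 and 1.45 in PC3 cells and at 1.41 in DU145 cells.

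Of the matrix proteases, LONP1 had the largest rise of the 10 genes in PC3 cells. LONP1 (chr19:5691834-5720572, minus strand), the ATP-driven protease that degrades damaged matrix proteins, had 111, 108 and 118 normalized CPM with vehicle and 182, 188 and 191 with pentamidine in PC3 cells. The groups were far apart, with a log2 fold change of 0.74 ± 0.053 (edgeR, adjusted p = 6.2e-09). DU145 cells had 126, 129 and 121 with vehicle and 142, 144 and 140 with pentamidine, without overlap, and the log2 fold change was 0.19 ± 0.039 (adjusted p = 1.6e-04). The rise was larger in PC3 cells by 0.56 ± 0.064 (interaction, adjusted p = 1.8e-07). The ribosomal protein gene RPL36, whose exons lie opposite to 0.846% of the exon bases of LONP1, went from between 4180 and 5873 reads to between 6886 and 7181 in PC3 cells, and its part in the LONP1 count was not tested.

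The subunits of the CLPXP protease moved little. CLPP (chr19:6361452-6368908, plus strand), the peptidase chamber, had 95.0, 85.0 and 105 normalized CPM in vehicle-treated and 96.7, 102 and 96.9 in pentamidine-treated PC3 cells. The treated samples lay inside the vehicle range (log2 fold change 0.059 ± 0.068, edgeR, adjusted p = 0.521). In DU145 cells it had 104, 103 and 106 with vehicle and 95.8, 99.4 and 93.1 with pentamidine, without overlap, and fell by 0.11 ± 0.043 on the log2 scale (adjusted p = 0.0364). This call was held in 9 of 16 alternatives. It was lost with DESeq2 (adjusted p = 0.0796), with scaling by library size alone (0.269), with limma on log2(CPM + 1) (0.265), with all 12 samples in one fit (0.143), and without the third vehicle sample (0.125), the first pentamidine sample (0.0650) or the third pentamidine sample (0.143).

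CLPX (chr15:65148219-65185342, minus strand), the unfoldase that feeds CLPP, ranged from 64.7 to 67.5 normalized CPM with vehicle and from 66.6 to 69.7 with pentamidine in PC3 cells, and from 76.2 to 79.9 and 74.8 to 81.6 in DU145 cells. The groups overlapped in both lines, with log2 fold changes of 0.051 ± 0.058 (edgeR, adjusted p = 0.515) and 0.020 ± 0.048 (adjusted p = 0.792). There were 0.699 ± 0.090 CLPX reads per CLPP read with vehicle and 0.691 ± 0.035 with pentamidine in PC3 cells (SD, n = 3; exact permutation test, two-sided, p = 1.0), and 0.747 ± 0.013 against 0.820 ± 0.058 in DU145 cells (exact permutation test, p = 0.3).

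The inner membrane proteases differed from each other in PC3 cells. YME1L1 (chr10:27110112-27155266, minus strand), the protease that faces the intermembrane space, had 142, 147 and 150 normalized CPM with vehicle and 171, 180 and 169 with pentamidine. All treated samples were higher, with a log2 fold change of 0.25 ± 0.052 (edgeR, adjusted p = 0.0010). In DU145 cells it had 188, 187 and 191 against 187, 194 and 180, which overlapped, with a log2 fold change of -0.0085 ± 0.036 (adjusted p = 0.886). The effects differed between the lines by 0.25 ± 0.061 (interaction, adjusted p = 0.0032). Exons of MASTL, a gene on the opposite strand, cover 6.04% of the exon bases of YME1L1, and MASTL had 705 to 958 reads with vehicle and 492 to 574 with pentamidine in PC3 cells.

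AFG3L2 (chr18:12328944-12377314, minus strand), a subunit of the protease that faces the matrix, had 133, 111 and 110 normalized CPM with vehicle and 100.5, 107 and 112 with pentamidine in PC3 cells. The groups overlapped, with the first vehicle sample above all others, and the log2 fold change of -0.14 ± 0.069 did not pass (edgeR, adjusted p = 0.101). It passed without the third vehicle sample (-0.19, adjusted p = 0.0440) and with all 12 samples in one fit (-0.15, adjusted p = 0.0404). In DU145 cells AFG3L2 had 109, 111 and 113 with vehicle and 102, 105 and 103 with pentamidine, with no overlap and a log2 fold change of -0.10 ± 0.042 (adjusted p = 0.0564). The adjusted p there ranged from 0.0415 to 0.374 over 16 alternatives, 4 of which called it, among them the fit without the first vehicle sample. Exons of TUBB6 lie opposite to 12.6% of the exon bases of AFG3L2. TUBB6 had 7637 to 8393 reads with vehicle and 6229 to 6581 with pentamidine in PC3 cells, and 6242 to 6478 against 5190 to 5473 in DU145 cells, and its part in the AFG3L2 values was not tested.

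**Figure D3:**
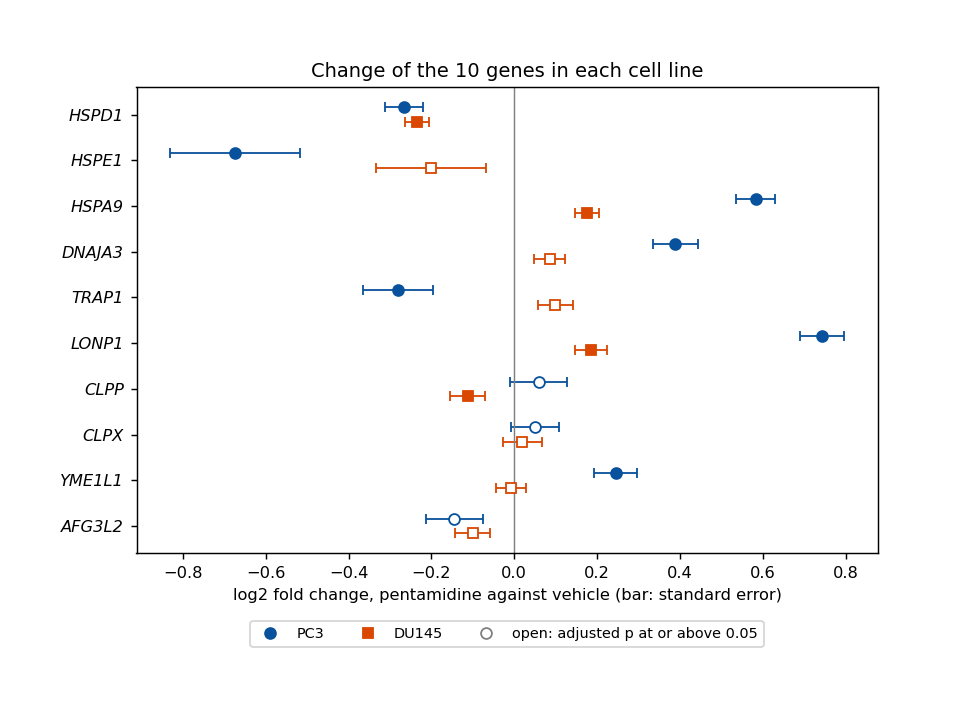
Log2 fold change of pentamidine against vehicle (horizontal axis) with its standard error for the 10 genes in PC3 cells (circles) and DU145 cells (squares), 3 samples per group, filled where the adjusted p was below 0.05. LONP1 (0.74) and HSPA9 (0.58) lie furthest to the right in PC3 cells, HSPE1 (-0.67) furthest to the left, and the HSPD1 symbols of the 2 lines lie side by side.

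The effect of pentamidine differed between the lines for 5 of the 10 genes by the interaction test, beside 20.4% of the 15226 genes tested. It was higher in PC3 cells for LONP1, HSPA9, DNAJA3 and YME1L1 (4 of 10, beside 10.2% of all genes) and lower for TRAP1 (1 of 10, beside 10.3%). The median difference of the 10 was 0.10 on the log2 scale, against -0.0091 over all genes. For HSPD1, AFG3L2 and CLPX the difference was at most 0.045 in size. That of CLPP, 0.17 ± 0.082, did not pass (adjusted p = 0.149) but did without the third vehicle sample of PC3 cells (0.25, adjusted p = 0.0130).

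With vehicle alone 7 of the 10 genes differed between the lines, beside 65.3% of the 14394 genes tested. HSPD1 and TRAP1 were higher in PC3 cells (2 of 10, beside 31.5% of all genes), by log2 differences of 0.20 ± 0.040 (edgeR, adjusted p = 3.2e-04) and 0.22 ± 0.080 (adjusted p = 0.0221). YME1L1, CLPX, HSPA9, LONP1 and CLPP were lower in PC3 cells (5 of 10, beside 33.8%), with log2 differences from -0.39 ± 0.047 for YME1L1 (adjusted p = 2.0e-06) to -0.16 ± 0.066 for CLPP (adjusted p = 0.0427). LONP1, 0.18 ± 0.053 lower in PC3 than in DU145 cells with vehicle, had the higher level in PC3 cells with pentamidine, at 187 ± 4.50 against 142 ± 1.59 normalized CPM. The call for LONP1 was lost with scaling by library size alone (-0.10, adjusted p = 0.0947) and with limma (0.0869). The call for TRAP1 was lost without the first vehicle sample of PC3 cells (0.12, adjusted p = 0.0735) and without the first (0.20, 0.0812) or the second (0.23, 0.0614) vehicle sample of DU145 cells. The call for CLPP was lost in 7 of 15 alternatives, 4 of them fits without 1 sample (the second PC3 vehicle sample or any of the 3 DU145 vehicle samples). HSPE1, at 0.29 ± 0.15, was called only in 3 of 15 alternatives, among them the fit without the first vehicle sample of PC3 cells (0.47, adjusted p = 0.0015).

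Levels of different genes were compared only per length, and parts of their order turned with the length used. Per 1000 exon bases HSPD1 was first, followed by HSPA9 and then CLPP in each of the 4 groups, and HSPE1 was last, below CLPX. HSPD1 stood at 297 ± 4.87 normalized CPM per 1000 exon bases in PC3 cells with vehicle and 246 ± 9.11 with pentamidine, and HSPA9 at 120 ± 3.5 and 179 ± 4.91 (SD, n = 3). LONP1 moved from rank 6 (22.1 ± 1.06) to rank 4 (36.8 ± 0.89) in PC3 cells. With the length of 1 transcript per gene in its place, a choice made after the values were seen, HSPA9 came before HSPD1 in both treated groups (523 ± 14.3 against 454 ± 16.8 per 1000 transcript bases in PC3 cells, 456 ± 2.94 against 397 ± 3.29 in DU145 cells) and after it in both vehicle groups. On that scale HSPE1 stood above CLPX in PC3 cells with vehicle (22.6 ± 4.84 against 14 ± 0.31), and their samples overlapped in the other 3 groups. LONP1 moved there from rank 6 to rank 5. CLPP kept rank 3 in all 4 groups on both scales.

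Among 13124 genes tested in both lines, the 5 whose 12 values lay nearest to those of HSPD1, after each line was centred on its vehicle mean, were SLC39A7, CORO1C, STT3A, DHX33 and EFTUD2. The root mean square difference of log2 values was 0.021 for SLC39A7 and 0.033 for EFTUD2. Of the other 9 genes AFG3L2 was nearest to HSPD1, at rank 1295 with 0.11, whereas HSPE1 came at rank 6887 and LONP1, at rank 11691 with 0.55, was farthest. The points share their libraries and their scaling.

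Several of the 10 proteins have relatives in the cytosol or the endoplasmic reticulum, and 8 of these were set beside them. At an adjusted p below 0.05 by edgeR, 7 of the 8 fell and 1 rose in PC3 cells (median log2 fold change -0.69). Of all genes tested there, 21.7% were called lower and 21.7% higher. In DU145 cells all 8 fell (median -0.41), beside 16.8% of all genes called lower. The HSP70 relatives were HSPA8, the constitutive cytosolic form, HSPA1A, the heat-inducible form, and HSPA5 (BiP), that of the endoplasmic reticulum. HSPA8 fell by 0.72 ± 0.050 on the log2 scale in PC3 cells (edgeR, adjusted p = 4.3e-09) and by 0.43 ± 0.027 in DU145 cells (adjusted p = 1.9e-19), the opposite direction to HSPA9. HSPA1A, whose reads are shared with its near-identical copy HSPA1B and whose count is therefore uncertain, fell by 1.21 ± 0.060 and 0.48 ± 0.049. HSPA5 went the way of HSPA9 in PC3 cells and against it in DU145 cells. It had 1103, 1099 and 1107 normalized CPM in PC3 cells with vehicle and 1571, 1646 and 1580 after treatment, and 1014, 1026 and 1008 against 746, 749 and 751 in DU145 cells. Its log2 fold changes were 0.54 ± 0.044 and -0.44 ± 0.029, with a difference between the lines of 0.98 ± 0.048 (interaction, adjusted p = 1.2e-14).

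The HSP90 relatives of TRAP1 fell in both lines. HSP90B1 of the endoplasmic reticulum changed by -0.77 ± 0.046 in PC3 and -0.41 ± 0.028 in DU145 cells on the log2 scale, HSP90AA1 of the cytosol by -0.73 ± 0.044 and -0.26 ± 0.027, and HSP90AB1 by -0.20 ± 0.043 and -0.18 ± 0.026. DNAJA1, the cytosolic relative of DNAJA3, fell by 0.66 ± 0.049 in PC3 cells, where DNAJA3 rose, and by 0.42 ± 0.032 in DU145 cells. TCP1, a subunit of the cytosolic chaperonin, fell by 0.37 ± 0.052 and 0.26 ± 0.031, the direction of HSPD1.

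**Figure D4:**
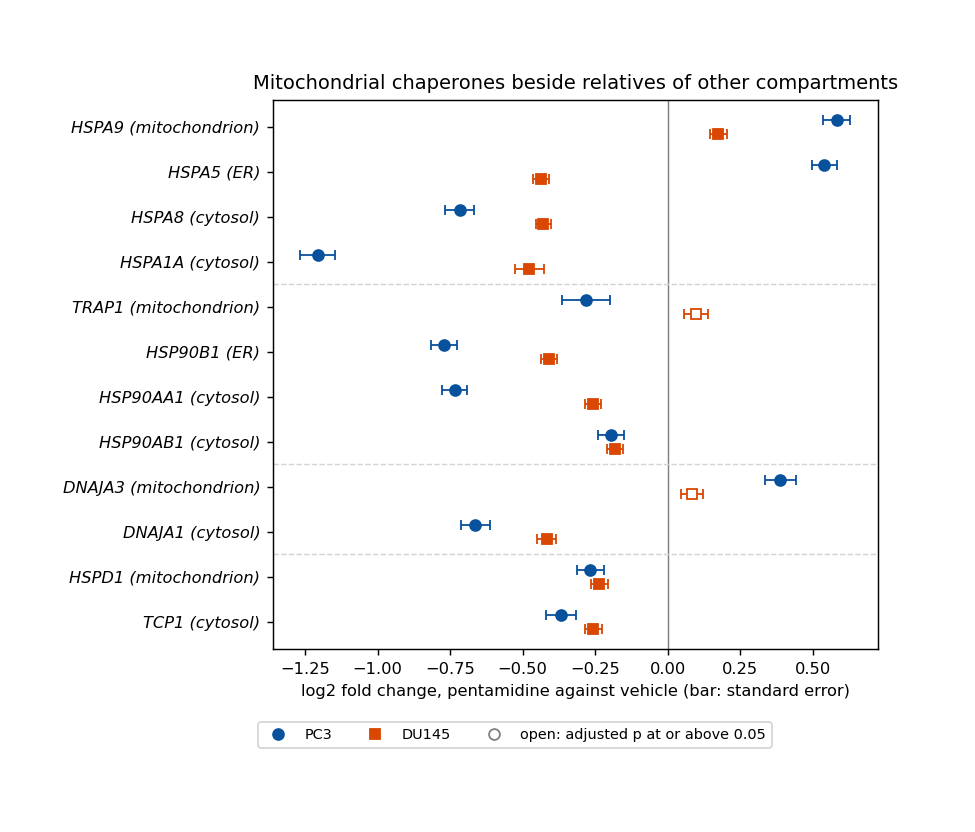
Log2 fold change of pentamidine against vehicle with its standard error for 4 mitochondrial chaperones, each above its relatives of the endoplasmic reticulum (ER) and the cytosol (dashed lines part the families), in PC3 cells (circles) and DU145 cells (squares), 3 samples per group, filled where the adjusted p was below 0.05. HSPA9 is to the right of 0 in both lines while HSPA8 and HSPA1A are to the left, and HSPA5 has a symbol on each side.

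A further 25 genes of mitochondrial protein quality control were counted, 11 chaperones, cochaperones and scaffolds and 14 proteases and peptidases. In PC3 cells 24 could be tested, of which 4 were higher, 7 lower and 13 not called (median log2 fold change -0.076). In DU145 cells 4 of 25 were higher, 6 lower and 15 not called, with a median of -0.035. The 11 and 10 calls are to be read beside the 43.4% and 34.0% of all genes called.

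GRPEL2, a nucleotide exchange factor of HSPA9, had the largest rise among the genes of this list called in each line. It had 35.8, 34.7 and 29.9 normalized CPM in PC3 cells with vehicle and 70.6, 70.2 and 77.5 with pentamidine, and 38.6, 43.6 and 41.4 against 58.3, 56.8 and 58.0 in DU145 cells. The groups were far apart in both lines, with log2 fold changes of 1.12 ± 0.074 (edgeR, adjusted p = 2.2e-09) and 0.49 ± 0.058 (adjusted p = 1.1e-09), and the rise was larger in PC3 cells by 0.63 ± 0.095 (interaction, adjusted p = 1.3e-05). It was the 1 gene of the 25 past the study's rule in PC3 cells, and none was in DU145 cells. GRPEL1, the other exchange factor of HSPA9 and named after its values were seen, fell in both lines, by 0.23 ± 0.058 and 0.24 ± 0.042 on the log2 scale. The pair of exchange factors of HSPA9 thus changed in opposite directions in each line.

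The next largest rises among the genes called were those of IMMP2L, a subunit of the inner membrane peptidase, in PC3 cells (0.56 ± 0.17) and of DNAJC19, a J-protein of the import motor, in DU145 cells (0.28 ± 0.073). Among the genes called, the largest falls were those of CLPB, a disaggregase of the intermembrane space (-0.47 ± 0.072 in PC3 and -0.34 ± 0.063 in DU145 cells), of LACTB, a serine protease-like protein of the intermembrane space (-0.46 ± 0.090 in PC3 cells) and of ATP23, a metalloprotease homologue of that space (-0.42 ± 0.13 in DU145 cells).

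Of 8 regulators tied to the mitochondrial stress response, 4 were higher and 2 lower in PC3 cells by edgeR at an adjusted p below 0.05 (median log2 fold change 0.17). Of all genes tested there, 21.7% were called higher and 21.7% lower. In DU145 cells 6 were higher and none lower (median 0.24), beside 17.2% of all genes higher and 16.8% lower. DDIT3 had 3.18, 5.57 and 5.38 normalized CPM in PC3 cells with vehicle and 32.9, 34.3 and 27.2 after treatment, and 5.59, 5.53 and 5.64 against 13.7, 14.9 and 11.7 in DU145 cells. The log2 fold changes of DDIT3, 2.74 ± 0.15 and 1.27 ± 0.13, those of CEBPB, 1.38 ± 0.16 and 0.69 ± 0.065, and those of ATF4, 1.13 ± 0.053 and 0.97 ± 0.032, exceeded those of LONP1 and HSPA9 in the same line. ATF5 fell in PC3 cells (-0.20 ± 0.077, edgeR, adjusted p = 0.0447) and rose in DU145 cells (0.34 ± 0.059, adjusted p = 9.4e-06), a difference of -0.54 ± 0.099 between the lines (interaction, adjusted p = 2.2e-04). EIF2AK1, the kinase HRI, fell in PC3 cells by 0.16 ± 0.050 (adjusted p = 0.0134).

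**Figure D5:**
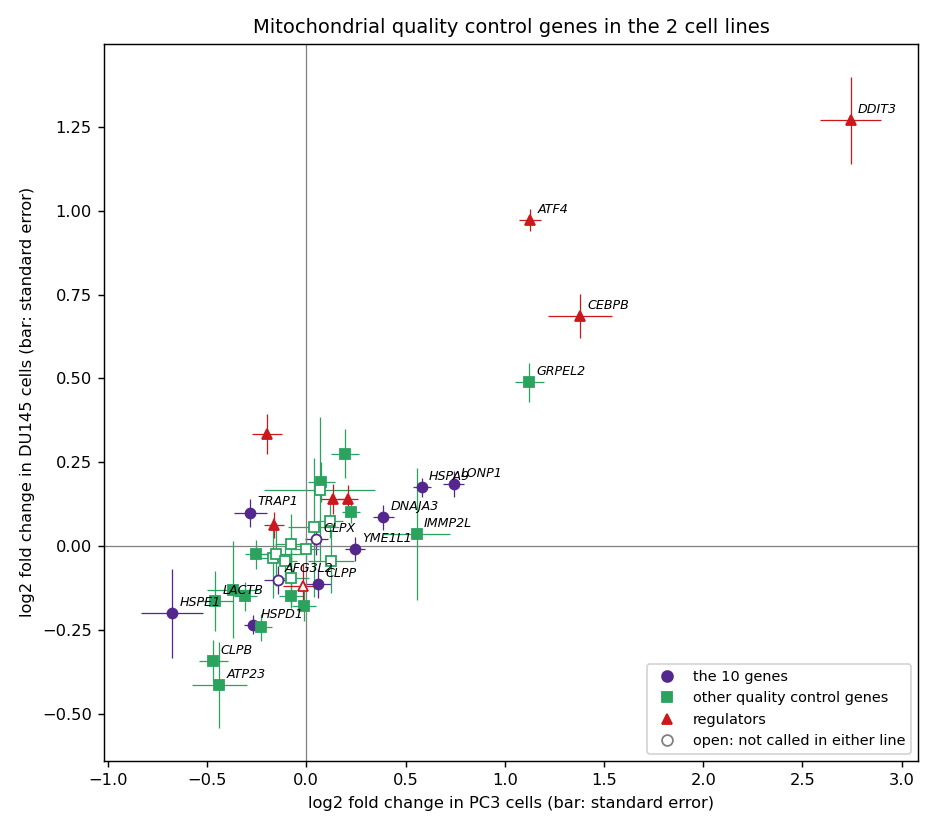
Log2 fold change in PC3 cells (horizontal axis) against that in DU145 cells (vertical axis), with standard errors, for the 10 genes (purple circles), the other quality control genes tested in both lines (green squares) and the 8 regulators (red triangles), open where not called in either line. DDIT3, ATF4 and CEBPB lie at the upper right, GRPEL2 (1.12 and 0.49) is the quality control gene nearest to them, and HSPA9 and LONP1 follow at lower values.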

How the data were processed

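Total RNA of the 12 samples was captured with Oligo(dT) beads and sequenced as paired-end reads. According to the study's methods and the submitters' processing notes, the authors aligned the reads with HISAT2 (2.1.0) to GRCh38 and compared groups with the DESeq package (1.18.1). The counting program, its annotation and its strand setting are not given in the sources used here. The count table deposited by the authors gives raw reads per gene. A table deposited under the name of FPKM holds CPM: 100% of its values equal the count scaled to the library total (tolerance 1e-05) and were not divided by length. It was used only for limma on log2(CPM + 1), as an alternative. Log2 fold changes and p-values of the authors' own comparisons, deposited in a table per line, were not used.

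Of 33639 lines of the count table, 44 were continuations of long lines, and 33595 entries held an identifier. After entries repeated under 1 name with equal counts were merged, 32077 genes were left. Depth was 13514195 to 15131436 counts per sample, and the HSPE1 values, from 103 to 211 reads, were the least precise of the 10.

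The 10 genes and all lists (25 other quality control genes, 8 regulators, 8 relatives, 13 mitochondria-encoded mRNAs, 10 cell type markers) were chosen with earlier results of these data known. All 10 genes were named. From the lists of quality control genes, regulators and relatives, those past the study's rule in either line and the 2 largest rises and falls per line were named, with relatives beside their gene and the 5 genes nearest to HSPD1. The HSPA9 to HSPD1 ratio, the motif search, the overlapping genes and the order by transcript length were chosen after the values were seen.

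Each line was tested on its 6 samples with edgeR's quasi-likelihood test (edgeR 4.0.16, R 4.3.3), TMM normalization, Benjamini-Hochberg adjustment and filterByExpr (minimum count 10). All 12 samples gave the interaction of line and treatment, and the 6 vehicle samples the comparison of lines. Normalized CPM was computed with TMM library sizes, and the genes nearest to HSPD1 were found on log2 CPM (prior count 2). Standard errors are the log2 fold change divided by the square root of edgeR's F statistic. Ratios were tested with scipy 1.17.1. Alternatives were DESeq2 1.42.0, RLE, library size alone, TMM without mitochondria-encoded genes, no filter, a stricter filter, 1 fit of 12 samples, limma 3.58.1, a replicate block, counts of pseudogenes of the same name added, an adjusted p below 0.01, the study's rule and each sample left out. The scripts were tested on simulated data. Promoter windows are those of RefSeq, and gene positions are those of the deposited table.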

Additional observations from a re-analysis of the deposited data

Results flagged for a closer look

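For 5 of the 10 genes the effect of pentamidine differed between the 2 lines by the interaction test of edgeR, beside 20.4% of the 15226 genes tested. The difference, PC3 minus DU145 on the log2 scale, was 0.56 for LONP1, 0.41 for HSPA9, 0.30 for DNAJA3 and 0.25 for YME1L1, each of which rose in PC3 cells by more than the estimate in DU145 cells. It was -0.38 for TRAP1, which fell in PC3 cells. All 5 were called at an adjusted p below 0.05 in each of 21 alternative fits, and none has a log2 difference above 1, as the study's rule would ask. No group has more than 3 samples, so single samples were not tested for standing apart from their group.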

How the results depend on the processing

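Over counts of called genes and ratios, 131 alternatives stayed near the main result, 7 lowered a count by more than 1.5 times and 4 turned a ratio. Near means a count within 1.5 times the main one, or a ratio of the same direction that moved by less than its SD. A count in that range can still have gained or lost single calls. Over single genes, 626 kept the direction and the call, 20 lost a call, 16 gained one and 18 changed sign in genes that were not called. Under the study's rule the count of the 10 genes was 0 in each comparison, and that of the other quality control genes 1 in PC3 and 0 in DU145 cells. At an adjusted p below 0.01 the latter list had 7 calls in PC3 cells, and the share of all genes called at that threshold is not given. The sign turned for YME1L1 in DU145 cells (0.041 with library size alone, 0.040 with limma), for the difference of CLPX between the effects (-0.038 and -0.037) and for DNAJA3 between vehicle-treated lines (0.065, 0.064, and 0.0033 with no filter). The cause was not tested.

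When 1 sample was dropped at a time, the calls among the 10 genes numbered 6 to 8 in PC3 cells, 3 to 5 in DU145 cells, 5 to 6 for the interaction and 5 to 7 between vehicle-treated lines, and those among the other quality control genes 8 to 10 and 7 to 11. The shares of all genes called in these fits are not given, so the counts cannot be set beside them. The log2 difference of the HSPD1 to HSPE1 ratio in DU145 cells ranged from -0.17 to 0.12. For CLPX to CLPP in PC3 cells it ranged from -0.099 to 0.084. The range was -0.019 to 0.14 for CLPP in PC3 cells, -0.010 to 0.049 for CLPX and -0.042 to 0.013 for YME1L1 in DU145 cells. For the interaction it was -0.047 to 0.00040 for HSPD1, -0.0056 to 0.057 for CLPX and -0.086 to 0.054 for AFG3L2, and between vehicle-treated lines -0.043 to 0.045 for DNAJA3 and -0.014 to 0.13 for AFG3L2.

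Samples with the same replicate number did not deviate together (correlations from -0.073 to 0.026 over genes), so the numbers were not taken to pair them. With the replicate number as a block, the calls numbered 7 in PC3 cells, 4 in DU145 cells, 5 for the interaction and 7 between vehicle-treated lines. The shares of all genes called with the block are not given either. Depth limits HSPE1 most, with 103 to 211 reads per sample.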
